A study of Mus musculus with 59 samples.

Results

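Pou5f1 (also called Oct4), Sox2, Klf4 and Myc are the transcription factors that together return somatic cells to a pluripotent state, and Mycn is a paralogue of Myc. These 5 genes were taken with all of their probe sets in the array annotation, 8 of 22626 probe sets and 5 of 11807 genes measured. Pou5f1, Sox2 and Myc have 1 probe set each, Klf4 has 2 and Mycn has 3, and each gene is given by the brightest of its probe sets on average unless another is named.

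The arrays measured RNA of 59 mouse lines, 1 Affymetrix array per line. Of these, 48 were induced pluripotent stem cell (iPSC) clones, made from somatic cells of animals grown from targeted KH2 embryonic stem cells (ESC) that carry an inducible cassette of all 4 factors. The clones came from MEFs (mouse embryonic fibroblasts) of chimera 1 (6 clones), from mouse 1 (13 clones), from mouse 2 (14 clones) and from chimera 2 (15 clones). In the last 3 animals, 31 clones came from blood lineages, namely haematopoietic stem cells (HSC, 11 clones), granulocyte-macrophage progenitors (GMP, 11 clones) and granulocytes (9 clones), and 11 came from cells labelled PF (5 clones, mouse 1 and mouse 2) or TTF (6 clones, chimera 2), treated here as 1 fibroblast class. A further line, Adeno-2, is an iPSC line labelled as made with adenovirus from fetal liver. Another 6 lines were embryonic stem cells from blastocysts cloned by nuclear transfer (NT-ESC): NT-4, NT-5 and NT-6 had Adeno-2 as nuclear donor, NT-7 had iPSC-7, and NT-8 and NT-9 had iPSC-15. The reference was 4 targeted KH2 ESC clones. All lines were grown with serum and LIF on irradiated MEFs and were preplated to remove feeders. The labels give no animal ages, no array batches, and no statement of whether the cassette was on or off at harvest.

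Oct4 and Sox2 bind DNA side by side at composite sites near many genes of the pluripotent state, their own included, and Klf4 binds many of the same enhancers. The loss of Oct4 turns mouse embryonic stem cells towards trophoblast, while LIF, through Stat3, raises Klf4. Myc and Mycn dimerise with Max on E-box sites and raise genes of ribosome assembly, nucleotide and polyamine synthesis. In mouse embryonic stem cells Mycn is the abundant paralogue and can stand in for Myc.

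Values are log2 intensities that the authors deposited, with every array centred near 0, so that a difference of 1 is a 2-fold change. Levels are compared between lines within 1 probe set, never between probe sets. Whether a probe set also reads cassette transcripts is not stated in the sources used here and was not tested. Replicates are clones or subclones, and p-values measure the spread between them, which may in part be technical. The mean of 8 pluripotency markers lay between 4.11 and 4.90 in all 59 lines, and that of 24 haematopoietic genes between -2.20 and -1.34. The arrays of NT-7, NT-8 and NT-9 stood apart: their values had SDs of 2.35 to 2.47 and a mean correlation with the ESC and iPSC arrays of 0.889 to 0.940, against SDs of 2.54 to 2.64 and correlations of 0.982 to 0.993 on the other 56 arrays. The level of a transcript in bulk RNA does not tell fewer cells with it apart from less of it per cell.

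The stretch of 250 bases upstream of the start is shown for the 3 genes of the core set whose promoters are in the RefSeq table of mouse assembly GRCm38.p6, because the factors are known to act on their own genes. For Pou5f1 the table lists 2 starts, and the window of the first is shown. Capitals mark matches to motifs of the factors themselves, searched on both strands: ATGCAAA for Oct4 and other POU factors, ACAANG for Sox factors, CCNCACCC for Krüppel-like factors and CACGTG, the E-box of Myc and Mycn with Max. No 2 of the matches overlap.
Pou5f1, chr17:35505782-35506031, plus strand: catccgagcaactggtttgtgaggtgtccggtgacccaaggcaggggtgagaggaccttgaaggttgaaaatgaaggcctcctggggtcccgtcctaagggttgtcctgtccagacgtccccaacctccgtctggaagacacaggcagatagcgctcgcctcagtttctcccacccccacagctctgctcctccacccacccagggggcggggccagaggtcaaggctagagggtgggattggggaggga
Sox2, chr3:34649745-34649994, plus strand: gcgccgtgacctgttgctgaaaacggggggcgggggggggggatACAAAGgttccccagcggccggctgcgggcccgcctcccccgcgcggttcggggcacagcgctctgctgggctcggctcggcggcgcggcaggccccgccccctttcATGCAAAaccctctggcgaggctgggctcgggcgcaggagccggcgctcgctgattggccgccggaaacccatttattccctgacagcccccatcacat
Klf4, chr4:55532476-55532725, minus strand: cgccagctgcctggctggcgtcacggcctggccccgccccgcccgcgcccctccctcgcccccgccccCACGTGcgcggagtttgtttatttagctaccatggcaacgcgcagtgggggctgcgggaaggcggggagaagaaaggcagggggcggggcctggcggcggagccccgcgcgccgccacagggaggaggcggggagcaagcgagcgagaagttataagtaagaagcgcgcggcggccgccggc
Sox2 held the octamer 99 bases before its start and a Sox motif 206 bases before it, Klf4 held an E-box 182 bases before its start, and neither the Pou5f1 window nor that of Mycn held any of the 4 motifs. Of 32851 promoter windows of the same length, 4.12% held ATGCAAA, 36.3% ACAANG, 14.9% CCNCACCC and 6.02% CACGTG. A match is a run of letters, not a measured binding site.

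Pou5f1, whose protein is required for the pluripotent state, had lower levels in clones of mouse 1 and mouse 2 than in those of chimera 1 and chimera 2. It measured 4.53, 4.57, 4.68 and 4.54 in the HSC-derived clones of mouse 1, and 4.51, 4.61, 4.54 and 4.51 in those of mouse 2. In the HSC-derived clones of chimera 2 it measured 4.97, 5.01 and 4.98, and in ESC 4.71, 4.87, 4.87 and 4.90. The HSC-derived clones of mouse 1 and mouse 2 were below every ESC, and those of chimera 2 above every ESC. The MEF-derived clones of chimera 1 ranged from 4.73 to 5.07 with a median of 4.94, and overlapped ESC.

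All 27 clones of mouse 1 and mouse 2 had less Pou5f1 than every clone of chimera 1 and chimera 2 and than every ESC. The highest of the 27 was at 4.68 and the lowest of the other 21 iPSC at 4.73, a gap of 0.05. Of all genes, 0.0678% (8 of 11807) had this complete separation in the same direction, and Pou5f1 had the narrowest gap of them. The others were 2210409E12Rik (gap 0.98), Tedc1 (0.29), Zfp386 (0.27), Mapt (0.15), Poglut1 (0.10), Bcl7c (0.08) and Lpar2 (0.06). This way of splitting the animals was chosen after the values were seen and has no test.

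Within 1 animal the level of Pou5f1 hardly varied between blood-derived clones. It averaged 4.57 ± 0.05 in mouse 1 (SD, n = 11), 4.56 ± 0.05 in mouse 2 (SD, n = 11) and 4.96 ± 0.04 in chimera 2 (SD, n = 9). In a fit of 42 clones with cell of origin and animal as terms, limma gave an adjusted p of 0.00638 for any difference between animals, with terms of -0.55 ± 0.23 for mouse 1 and -0.86 ± 0.23 (SE) for mouse 2 against chimera 2. With 1 mean per animal and cell of origin in place of single clones this call was lost (adjusted p = 0.0866). Without iPSC-32 the range between animals was 0.49 instead of 0.86, with an adjusted p of 2.37e-15. The series gives no array batch, so animal and batch cannot be told apart.

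iPSC-32, a clone from PF cells of mouse 2, was the one exception in the level of Pou5f1 itself. It measured 0.28, against 4.28 in iPSC-33 and 4.06 in iPSC-34, the other PF clones of this animal. The gap of 3.78 to the next lowest iPSC had no like among the 11807 genes: in no other gene did the lowest iPSC lie more than 3 log2 units below the next. The clone was looked at because of its known low value, so what follows is a description.

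Sox2, the partner of Oct4 at composite sites, varied over a narrow range. It ranged from 3.73 (iPSC-34) through a median of 4.30 to 4.52 in the 48 iPSC, and measured 4.27, 4.38, 4.36 and 4.54 in ESC. Blood-derived clones averaged 4.29 ± 0.14 in mouse 1 (SD, n = 11), 4.41 ± 0.09 in mouse 2 (SD, n = 11) and 4.27 ± 0.11 in chimera 2 (SD, n = 9). Fibroblast-derived clones held the lowest levels: 4.06 and 4.32 in PF clones of mouse 1, 4.24, 4.04 and 3.73 in PF clones of mouse 2, and 3.93 to 4.25, with a median of 4.06, in TTF clones of chimera 2. Of the 48 iPSC, 21 were below every ESC and none was above all of them. The share of all genes with such counts was not computed.

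Klf4, a Krüppel-like factor downstream of LIF and Stat3, lay below ESC in most iPSC. iPSC ranged from 3.02 through a median of 4.23 to 4.59, and ESC measured 4.40, 4.52, 4.49 and 4.49. On this probe set 43 of the 48 iPSC were below every ESC and 1 was above. How many of all genes had such counts was not computed. The lowest clones were iPSC-46 from TTF cells at 3.02, iPSC-34 from PF cells at 3.43 and iPSC-48 from TTF cells at 3.63. The second probe set of Klf4 followed the first with a correlation of 0.916 over the 52 ESC and iPSC arrays. ESC spread more widely on it, at 4.17, 4.45, 4.50 and 4.54, and fewer iPSC lay below every ESC than on the first.

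Myc, which drives growth and proliferation, differed widely between animals. The MEF-derived clones measured 0.57, 1.09, 0.54, 0.22, 1.07 and 0.62. ESC measured 1.96, 0.66, 0.62 and 0.62, so that ESC-1 stood 1.30 above the next, and the MEF-derived clones overlapped the other ESC. All 42 clones of other origins were above ESC-2, ESC-3 and ESC-4, as were 2.71% of all genes in the same comparison, and 20 of the 42 were above ESC-1 too.

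The highest Myc levels were in mouse 1, where 12 of 13 clones lay above every ESC. For this count the share of all genes was not computed, nor was it for the clones above ESC-1. HSC-derived clones of mouse 1 measured 2.99, 2.79, 2.74 and 2.37, against 1.04, 1.19, 1.44 and 1.48 in mouse 2 and 1.67, 1.64 and 1.34 in chimera 2. GMP-derived clones measured 2.40, 2.70, 2.73 and 2.70 in mouse 1, against 1.42, 1.35, 1.79 and 1.39 in mouse 2 and 1.35, 1.32 and 1.37 in chimera 2. Neither set of mouse 1 clones overlapped its counterparts in the other animals, as was so in the same direction for 4.57% of all genes among HSC-derived and 4.63% among GMP-derived clones. Granulocyte-derived clones measured 2.61, 2.80 and 1.81 in mouse 1, 1.59, 1.35 and 1.82 in mouse 2, and 1.47, 1.55 and 0.97 in chimera 2, and here iPSC-17 of mouse 1 fell within the range of mouse 2. In the fit of 42 clones limma gave a range of 1.01 between animals (adjusted p = 3.37e-09), with a term of 0.94 ± 0.12 (SE) for mouse 1 against chimera 2. Without mouse 1 the difference between mouse 2 and chimera 2 was 0.02 (adjusted p = 0.87).

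Mycn, the main Myc paralogue of embryonic stem cells, varied little across ESC and iPSC. iPSC ranged from 4.20 (iPSC-32) through a median of 4.77 to 4.99, and ESC measured 4.94, 4.59, 4.57 and 4.88. The MEF-derived clones lay between 4.53 and 4.60, apart from iPSC-6 at 4.94. Blood-derived clones averaged 4.74 ± 0.08 in mouse 1 (SD, n = 11), 4.86 ± 0.06 in mouse 2 (SD, n = 11) and 4.88 ± 0.09 in chimera 2 (SD, n = 9). Its other probe sets read it differently: the second followed the first with a correlation of 0.670 over 52 arrays, and the third, at about the foot of the scale in blood-derived clones (means of -3.39 to -3.27 per animal), had a correlation of -0.002.

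**Figure D1:**
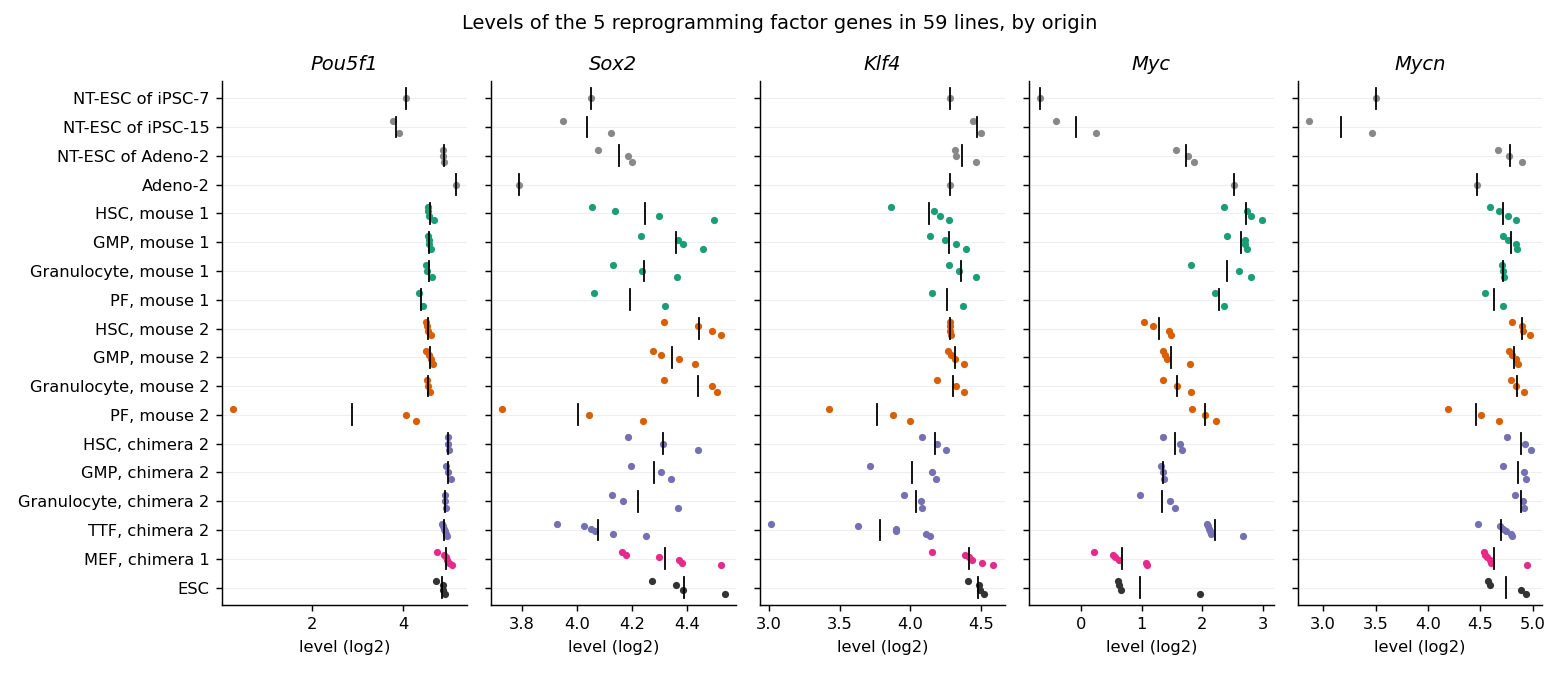
Level (log2, horizontal axes, each gene with its own scale) of the 5 genes in all 59 lines, grouped by origin from NT-ESC at the top to ESC at the bottom, with 1 point per line and a bar at the group mean. Pou5f1 of iPSC-32 stands alone at 0.28, Myc is highest in mouse 1, and NT-7, NT-8 and NT-9 lie low in Myc and Mycn.

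Ordered by group mean, the 16 groups with over 1 line ran for Myc from HSC (2.72), GMP (2.63), granulocyte (2.40) and PF (2.28) of mouse 1, through TTF of chimera 2 (2.20), PF of mouse 2 (2.04) and the NT-ESC of Adeno-2 (1.73), to the blood groups of mouse 2 and chimera 2 (1.59 to 1.29), ESC (0.97), MEF (0.68) and the NT-ESC of iPSC-15 (-0.07). Of the 15 pairs of neighbours in this order, 2 differed by more than the pooled SD within groups (0.31). For Sox2 0 of 15 pairs did (pooled SD 0.13), for Klf4 1 (0.19), for Mycn 2 (0.14) and for Pou5f1 2 (0.50). Without iPSC-32, whose value widens the pooled SD of Pou5f1, 4 of 15 pairs did for that gene, with a pooled SD of 0.07. Most neighbours in these orders therefore did not differ beyond the spread between clones.

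The comparison with ESC asks how near the clones are to the cells that gave rise to the animals. For none of the 5 genes was a difference detected between MEF-derived clones and ESC. In that order their means were 4.93 and 4.84 for Pou5f1, 4.32 and 4.39 for Sox2, 4.41 and 4.47 for Klf4, 0.68 and 0.97 for Myc and 4.63 and 4.74 for Mycn. The differences had SEs of 0.08 for Pou5f1, 0.09 for Sox2, 0.08 for Klf4, 0.27 for Myc and 0.11 for Mycn, with limma's adjusted p between 0.79 and 0.885. Of all genes 0% were called in this comparison, with 997 of 11807 at an unadjusted p under 0.05, and no member of the lists below was called either.

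Over all 48 iPSC against ESC, again none of the 5 genes passed, while 4.94% of all genes did (2.52% higher and 2.41% lower). Myc differed by 0.81 ± 0.34 (SE, adjusted p = 0.144) and Klf4 by -0.31 ± 0.14 (adjusted p = 0.164), with 1.78 ± 0.68 in iPSC and 0.97 ± 0.67 in ESC for Myc, and 4.16 ± 0.28 and 4.47 ± 0.05 for Klf4 (SD, n = 48 and 4). The call on Myc turned on single choices: it passed without ESC-1 (1.14, adjusted p = 0.049, 9.42% of genes called), without the MEF-derived clones (0.96, adjusted p = 0.0138, 19.3% called) and with every origin group given equal weight (0.85, adjusted p = 8.13e-05, 25.7% called). With equal weight Klf4 passed as well (-0.31, adjusted p = 0.02).

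Genes around Myc were called in this comparison in small numbers, and none of these calls, nor those in the other lists, was kept when clones of 1 animal were not taken as independent. With animal as a random block 0 of 11807 genes passed, and the 15 called genes named for these lists had an adjusted p of 0.197 to 0.627 with an estimated correlation. All ESC formed 1 block in that fit, so the comparison lay wholly between blocks. The loss of calls therefore says little about any single list. Of 35 listed genes that Myc is known to raise, 5 rose in iPSC and none fell, with a median difference of 0.20 against 0.03 over all genes (14.3% called, against 4.94% of all genes). They included Odc1, the first enzyme of polyamine synthesis (0.63, adjusted p = 0.0234), Bop1, a ribosome assembly factor (0.59, adjusted p = 0.0198), Nme1, a nucleoside diphosphate kinase (0.41, adjusted p = 0.0201), and Noc4l, a nucleolar protein (0.40, adjusted p = 0.0392). Of 19 partners, antagonists and cofactors of Myc, 2 rose, the paralogue Mycl (0.54, adjusted p = 0.00791) and Mlx, a relative of Max (0.33, adjusted p = 0.0368), and 1 fell, Wdr5 (-0.26, adjusted p = 0.0419), a part of histone methyltransferase complexes.

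Among the other lists the share called ran from 0% to 18.2%, beside 4.94% of all genes. Of 27 partners and targets of Oct4 and Sox2, 2 (7.41%) fell in iPSC, Dppa3 (-0.55, adjusted p = 0.0361) and Tfcp2l1 (-0.53, adjusted p = 0.0232). Klf6 (-0.59, adjusted p = 0.0281) and Klf10 (-0.44, adjusted p = 0.011) fell among 11 other Krüppel-like genes (18.2%). Of 18 trophoblast genes that rise when Oct4 is lost, 3 (16.7%) fell and none rose, namely Gata2 (-1.47, adjusted p = 0.000593), Krt7 (-1.33, adjusted p = 0.0156) and Tfap2c (-0.43, adjusted p = 0.0192). Of 17 genes of LIF and Wnt signalling 1 (5.88%) fell, Socs3 (-0.45, adjusted p = 0.0176), which is a target of Stat3. Of 8 other POU genes and 17 other Sox genes none passed.

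Blood-derived and fibroblast-derived clones of the same animals differed in all 5 genes, in a comparison in which 49.7% of all genes were called (28.1% higher and 21.6% lower in blood-derived clones). Over the 3 animals, 31 blood-derived clones had a median of 4.58 and 11 fibroblast-derived clones 4.85 for Pou5f1, 4.32 and 4.06 for Sox2, 4.27 and 3.90 for Klf4, 1.59 and 2.13 for Myc, and 4.84 and 4.69 for Mycn. These medians pool the animals, and 6 of the 11 fibroblast-derived clones came from chimera 2, where Pou5f1 was high in clones of every origin. With animal as a term in limma, blood-derived clones were higher in Pou5f1 (0.59 ± 0.22, adjusted p = 0.0223), Sox2 (0.24 ± 0.05, adjusted p = 0.00015), Klf4 (0.30 ± 0.08, adjusted p = 0.00178) and Mycn (0.23 ± 0.04, adjusted p = 1.66e-05), and lower in Myc (-0.49 ± 0.11, adjusted p = 0.000342; differences with SE). The call on Mycn rests on its brightest probe set. Tested singly in limma, its other probe sets did not pass (0.09, adjusted p = 0.178, and -0.06, adjusted p = 0.436). Without iPSC-32 the difference in Pou5f1 was 0.17 (adjusted p = 3.71e-05), and all 5 genes again passed, with 50.6% of all genes called. With 1 mean per animal and cell of origin 3 of the 5 passed, where 36.4% of all genes did, and the calls on Pou5f1 (0.64, adjusted p = 0.0564) and Myc (-0.36, adjusted p = 0.13) were lost.

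Within animals these differences were uneven. Pou5f1 differed by 0.18 in mouse 1, by 1.69 in mouse 2 (0.39 without iPSC-32) and by 0.06 in chimera 2. Klf4 differed by -0.02, 0.53 and 0.29 in mouse 1, mouse 2 and chimera 2, Sox2 by 0.09, 0.40 and 0.20, and Mycn by 0.12, 0.40 and 0.18. On its next brightest probe set Mycn differed by -0.07, 0.27 and 0.05 in the same animals. Klf4 on its second probe set differed by 0.22, 0.79 and 0.31, with no turn of sign in mouse 1. In mouse 2 all 3 fibroblast-derived clones lay below every blood-derived clone in Pou5f1, Sox2, Klf4 and Mycn, as did 11.8% of all genes. In mouse 1, of 2 fibroblast-derived clones, 2 lay below every blood-derived clone in Pou5f1, 1 in Mycn, and 0 in Sox2 and Klf4, and both lay there in 12.3% of all genes. In chimera 2, of 6 fibroblast-derived clones, 3 lay below every blood-derived clone in Pou5f1, 4 in Sox2, 2 in Klf4 and 2 in Mycn. The share of all genes in this direction was not computed for chimera 2.

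Myc differed in sign between animals. In mouse 1 blood-derived clones had a median of 2.70 (1.81 to 2.99), against 2.20 and 2.35 in the fibroblast-derived clones, both below that median. In mouse 2 they lay between 1.04 and 1.82, against 2.05, 2.23 and 1.84 in fibroblast-derived clones. In chimera 2 they lay between 0.97 and 1.67, against 2.14, 2.67, 2.11, 2.07, 2.10 and 2.13. Every fibroblast-derived clone of mouse 2 and chimera 2 was above all blood-derived clones of its animal. Of all genes, 8.22% separated this way in mouse 2 and 4.82% in chimera 2. The differences, blood minus fibroblast, were 0.33 in mouse 1, -0.60 in mouse 2 and -0.79 in chimera 2. A test of the interaction of origin with animal in limma was passed by Myc (adjusted p = 0.0017) and Pou5f1 (adjusted p = 0.0243), by 2 of the 5 genes and 19.2% of all genes. With all probe sets tested singly, the second probe set of Klf4 passed it too (range 0.58, adjusted p = 0.0495 in limma). The call of a difference in Myc between blood and fibroblast origin was lost without chimera 2 (-0.21, adjusted p = 0.275).

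**Figure D2:**
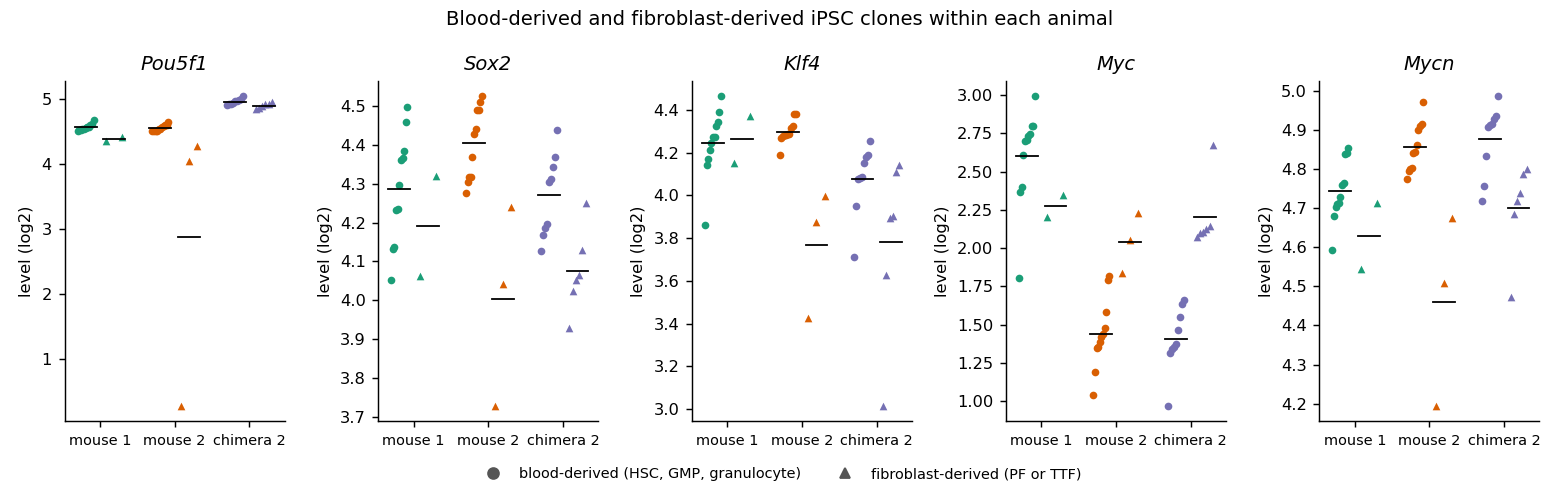
Level (log2, vertical axes, each gene with its own scale) of the 5 genes in blood-derived clones (circles) and fibroblast-derived clones (triangles) of mouse 1, mouse 2 and chimera 2, with 1 point per clone and a bar at the mean. Myc is higher in the fibroblast-derived clones of mouse 2 and chimera 2, while in mouse 1 both lie below the blood-derived median of 2.70.

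Fibroblast genes moved with the same comparison. Of 25 fibroblast and feeder genes 23 were lower in blood-derived clones, and their mean level was 1.27 ± 0.36 (0.79 to 2.36) in blood-derived and 2.03 ± 0.34 (1.53 to 2.70) in fibroblast-derived clones (SD, n = 31 and 11). Among them were Dcn, a matrix proteoglycan (-1.63), and the mesenchymal regulators Twist2 (-1.62) and Prrx1 (-1.24). Of 24 haematopoietic genes 5 were higher and 5 lower in blood-derived clones (median -0.06), with Kit (0.61) and Coro1a (0.39) higher and Cd53 (-1.53) and Lcp1 (-0.72) lower. In mouse 1, where Myc did not run with the other animals, the list mean was 1.66 in blood-derived and 1.91 in fibroblast-derived clones, against 1.12 and 2.43 in mouse 2 and 0.98 and 1.87 in chimera 2. With the list mean of each clone as a covariate none of the 5 genes passed, and the differences were 0.13 for Sox2, 0.05 for Mycn, -0.27 for Pou5f1, -0.15 for Klf4 and 0.21 for Myc (adjusted p from 0.326 to 0.655). The covariate itself differed by origin, so that fit also takes out part of the origin difference, and it called fewer of all genes. The MEF-derived clones, with a list mean of 1.03, and ESC, with 0.96 ± 0.50 (SD, n = 4, 0.40 to 1.62), lay near the blood-derived clones. The part of fibroblast or feeder RNA in the differences of the 5 genes was not tested.

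In the lists around the factors the share of members called lay on both sides of the 49.7% of all genes called. Of 27 partners and targets of Oct4 and Sox2, 13 were higher and 1 lower in blood-derived clones (51.9% called, near the share of all genes, with a median of 0.11 against 0.00), among them Mybl2 (0.49), Nr0b1 (0.41), the Polycomb gene Phc1 (0.40) and Fgf4, a growth factor gene bound by Oct4 with Sox2 (0.39). Of the 35 genes raised by Myc, 7 were higher and 15 lower (62.9% called), with cyclin gene Ccnd2 (-0.79), Imp4 (-0.28) and Nme1 (-0.26) lower and Shmt2, a mitochondrial enzyme of serine metabolism, higher (0.41). In the network of Myc itself 8 of 19 were higher and 2 lower (52.6% called), with the antagonist Mxi1 higher (0.53) and the antagonist Mxd4 lower (-0.47).

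The Krüppel-like, Sox and POU families had shares below that of all genes. Of 11 other Krüppel-like genes 4 (36.4%) were higher and none lower (Klf3 0.40, Klf16 0.27, Klf10 0.26 and Klf9 0.20). Of 17 other Sox genes 3 were higher, Sox12 (0.35) and Sox15 (0.32) among them, and 3 lower, including Sox9 (-0.93) and Sox4 (-0.32), 35.3% in all. Of 8 other POU genes 2 (25%) were lower, Pou2f2 (-0.19) and Pou3f4 (-0.17). Of 17 LIF and Wnt genes 6 were higher, Lifr, the receptor of LIF, by 0.48 and the kinase gene Tyk2 by 0.53, and 3 lower, with Tcf7l2 at -0.28 (52.9% called, near the share of all genes). Of 18 trophoblast genes 4 were higher and 7 lower (61.1% called), with keratin genes on both sides (Krt7 0.52, Krt8 -0.84 and Krt18 -0.43) and Cdx2 lower (-0.64). With 1 mean per animal and cell of origin 36.4% of all genes were called. Of the 27 Oct4 and Sox2 genes 10 (37.0%) were, and of the 35 genes raised by Myc 10 (28.6%), near or below that share. Of the genes named in these lists the call on Pou3f4 was lost (adjusted p = 0.0545 in limma).

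Between granulocyte-derived and HSC-derived clones no difference in the 5 genes was detected, and GMP-derived clones were not compared singly with either. Granulocyte-derived minus HSC-derived clones differed by -0.05 in Pou5f1, -0.03 in Sox2, 0.05 in Klf4, -0.08 in Myc and -0.02 in Mycn, and none passed in limma. Of all genes 0% were called and 390 of 11807 had an unadjusted p under 0.05. The test of any difference between the 4 cell classes called Sox2, Klf4, Myc and Mycn (adjusted p = 0.00192, 0.0191, 0.00433 and 0.000271) but not Pou5f1 (0.149), with 38.0% of all genes called. Of the Mycn probe sets tested singly in limma, only the brightest passed (adjusted p of the others 0.536 and 0.872). Without iPSC-32 Pou5f1 passed too (adjusted p = 0.000404). These calls take clones as independent: with 1 mean per animal and cell of origin none of the 5 genes passed (adjusted p of 0.0738 for Mycn, 0.102 for Sox2, 0.198 for Klf4, 0.276 for Pou5f1 and 0.482 for Myc), where 17.4% of all genes did.

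Animals differed in 3 of the 5 genes, where 44.9% of all genes were called. Besides Pou5f1 and Myc these were Mycn (range 0.14, adjusted p = 0.0354), while Sox2 (0.08, adjusted p = 0.377) and Klf4 (0.22, adjusted p = 0.0702) did not pass. The second probe set of Klf4 did pass in limma when all probe sets were tested singly (range 0.26, adjusted p = 0.0217). With 1 mean per animal and cell of origin Myc alone passed (0.91, adjusted p = 0.00861), with 23.4% of all genes called, and Mycn had an adjusted p of 0.306. The call on Mycn was also lost in 11 of the fits that left out 1 line (adjusted p of at most 0.0625). Around Myc, 21 of the 35 genes it raises differed between animals, with ranges of 0.95 for Ccnd2, 0.43 for Rrp12, 0.33 for Bop1 and 0.32 for Odc1, and 8 of the 35 did with 1 mean per animal and cell of origin, Rrp12 no longer among them (adjusted p = 0.0813). Around Oct4 and Sox2 it was 14 of 27, led by Nr5a2 (1.20), a nuclear receptor that activates Pou5f1 in mouse, and by Fbxo15 (1.13), a target of both. Of the Krüppel-like genes 7 of 11 differed, with Klf5 at 0.88, and of the fibroblast and feeder genes 21 of 25. Of the other lists, 5 of 17 Sox genes (29.4%), 3 of 8 POU genes (37.5%), 6 of 19 Myc network genes (31.6%), 9 of 17 genes of LIF and Wnt signalling (52.9%), 10 of 18 trophoblast genes (55.6%) and 6 of 24 haematopoietic genes (25%) were called, shares that were not tested against each other.

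Across the 48 iPSC, Myc and Mycn did not follow each other. Their correlation was -0.148 (permutation test, 2-sided, p = 0.316, adjusted p = 0.553), with Spearman's rho at -0.248 (permutation p = 0.0889, adjusted p = 0.356). Adjusted values are over 40 p-values of 20 relations computed between the pair. Without iPSC-4 and iPSC-7, the clones farthest from the median of Myc, the correlation was -0.200, and for deviations from origin group means it was -0.175 (permutation p = 0.283).

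Within animals the correlation was 0.00679 in mouse 1 (n = 13), -0.650 in mouse 2 (n = 14, permutation p = 0.0104, adjusted p = 0.139) and -0.701 in chimera 2 (n = 15, permutation p = 0.00329, adjusted p = 0.0658). Spearman's rho was -0.203, -0.547 and -0.463 in the same animals, with adjusted permutation p of 0.581, 0.356 and 0.356. The MEF-derived clones had -0.145 (n = 6, exact permutation p = 0.767). In mouse 2 and chimera 2 every fibroblast-derived clone was above all blood-derived clones in Myc and below their median in Mycn. Among the blood-derived clones alone it was -0.298 in mouse 1 (n = 11), -0.262 in mouse 2 (n = 11) and 0.284 in chimera 2 (n = 9), with adjusted permutation p of 0.553 to 0.581. Without the 2 clones farthest from the median of Myc in each animal, the correlation was -0.515 in mouse 2 and -0.461 in chimera 2, with adjusted permutation p of 0.356 and 0.37.

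Myc ran more closely with other measures than with its paralogue. Over 48 iPSC it had a correlation of 0.801 with the mean of the 35 genes Myc raises and of 0.686 with the mean of the fibroblast and feeder genes. For deviations from origin group means these were 0.408 and 0.429, and the lines share array and culture. The mean of the 35 genes was 3.91 in blood-derived and 3.85 in PF-derived clones of mouse 1, 3.85 and 3.86 in mouse 2, and 3.74 in blood-derived and 3.89 in TTF-derived clones of chimera 2, against 3.51 in MEF-derived clones and 3.59 ± 0.13 in ESC (SD, n = 4). Mycn had a correlation of -0.615 with the fibroblast and feeder mean (-0.511 for deviations) and of 0.133 with the 35 genes.

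**Figure D3:**
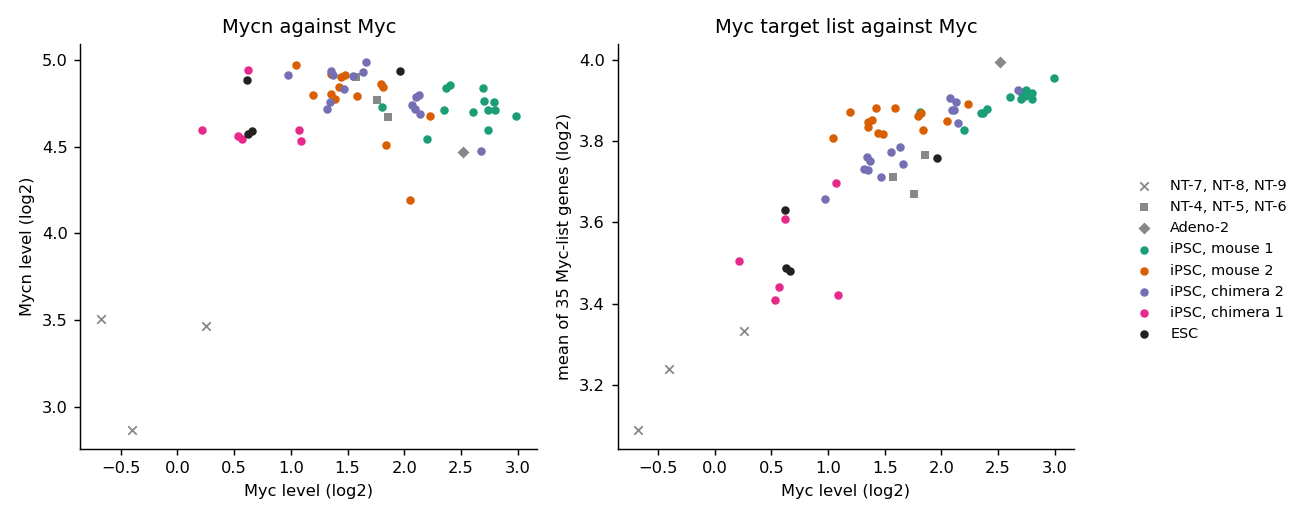
Left, level of Mycn against level of Myc (both log2), and right, mean level of 35 genes raised by Myc against level of Myc, with 1 point per line for all 59 lines, coloured by animal or class. Mycn does not follow Myc among iPSC (r = -0.148, n = 48), the list mean does (r = 0.801), and NT-7, NT-8 and NT-9 lie apart from all others.

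Among the other pairs, Sox2 and Klf4 had a correlation of 0.635 over the 52 ESC and iPSC arrays (0.357 for deviations of iPSC from group means), Sox2 and Mycn 0.472 and Pou5f1 and Mycn 0.494. The last rests on iPSC-32, without which it was 0.079, while the others were 0.636 and 0.529. Sox2 and Klf4 also followed the mean of the 27 Oct4 and Sox2 partners and targets (0.679 and 0.591 over 48 iPSC). For Pou5f1 this correlation was -0.073 with iPSC-32 included, and it was not computed without that clone.

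Genes with the most similar pattern over these 52 arrays were ranked by correlation. Nearest to Sox2 were D030056L22Rik (0.875), Morc3, Lifr (0.874), Rad21 and Ubr3. Nearest to Klf4 were Cox6b2 (0.839), Dock1 (0.809), Esrrb (0.797), Stmn2 and Slc15a1. Nearest to Myc were Lrrc14 (0.903), B3galt6 (0.897), Noc3l (0.891), Slc4a2 and Epop, and nearest to Mycn Enah (0.816), Slc25a46 (0.802), Zfp947, Atp13a3 and B230308N11Rik. For Pou5f1 the list depended on 1 clone: it was Pclaf (0.797), Phlda2 (0.797), 1700097N02Rik (0.786), Lamtor3 and Nnt over 52 arrays, and Ibtk (0.909), Poglut1 (0.888), Haus4 (0.875), Mapt (0.871) and 2210409E12Rik (0.863) without iPSC-32.

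In iPSC-32, with Pou5f1 at 0.28, the other 4 genes measured 4.24 for Sox2, 4.00 for Klf4, 2.05 for Myc and 4.20 for Mycn. The first 3 lay inside the range of the other 47 iPSC, and Mycn lay below it (lowest 4.47). On the other Mycn probe sets iPSC-32, at 1.33 and -3.32, lay inside the range of the other iPSC. Of 8 pluripotency markers none was below all other iPSC and 1 was above, Fbxo15 at 4.78 (the others at most 4.07). Nanog was at 5.17 in iPSC-32 and between 4.63 and 5.18 in the others, and Zfp42 at 4.51 and between 3.67 and 4.59.

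Of the 27 partners and targets of Oct4 and Sox2, 21 lay inside the range of the other iPSC, 2 below and 4 above. Below were Lefty1, a Nodal antagonist, at 0.01 (the others 1.80 to 4.01) and Phc1 at 3.42 (4.24 to 4.84). Above were Fbxo15, Tbx3 at 4.34 (at most 3.89), Dppa2 at 4.92 (at most 4.91) and Zfp281 at 4.51 (at most 4.50). Of the 18 trophoblast genes 2 were above and 2 below. Tfap2c was at 4.44 (at most 4.29), while Krt18 was at 2.77 (at least 2.85) and Cdx2, at -1.45, lay inside the range of the others (-1.92 to 0.22). Of all genes 7.53% were below and 6.41% above all other iPSC in this clone.

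Fibroblast and feeder genes were the list that stood out in iPSC-32: 15 of 25 (60%) were above all other iPSC. Of the 10 measured genes next to Pou5f1 on its chromosome, in the gene order of RefSeq, 7 lay inside the range of the other clones. Outside it were H2-Q4 and H2-Q10, both at low values, and Tcf19, the next measured gene downstream, at 0.19 (at least 0.34). The part of fibroblast or feeder cells in the level of Pou5f1 was not tested.

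**Figure D4:**
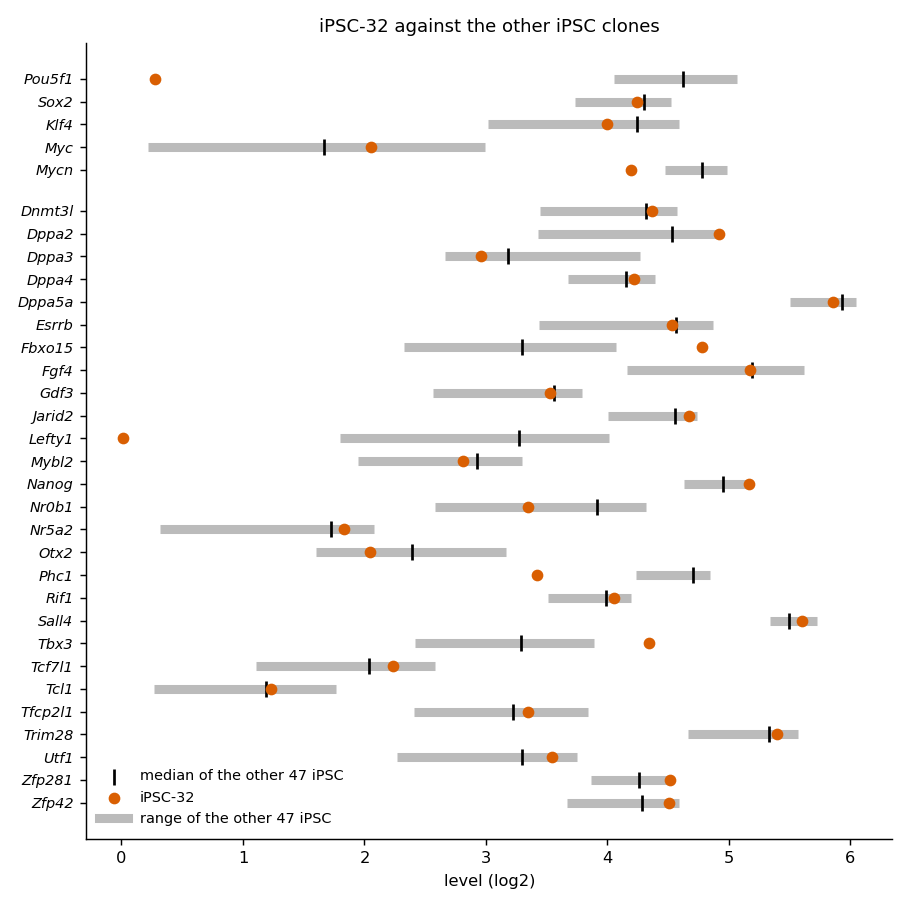
Level (log2) in iPSC-32 (orange points) of the 5 factor genes and of 27 further Oct4 and Sox2 partners and targets, against the range (grey bars) and median (black ticks) of the other 47 iPSC. Pou5f1 and Lefty1 lie far below the bars, and Fbxo15 and Tbx3 lie above them.

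The nuclear transfer lines show what the level of each factor was after a second return to the embryonic state. None of the 5 genes passed the comparison of NT-ESC with their donor lines, with the donor as a block (0.0593% of all genes called and 4824 of 11807 at an unadjusted p under 0.05). Myc measured 1.57, 1.76 and 1.86 in NT-4, NT-5 and NT-6, against 2.52 in Adeno-2. It measured -0.67 in NT-7, against 2.99 in iPSC-7, and -0.40 and 0.25 in NT-8 and NT-9, against 2.61 in iPSC-15. All 6 NT-ESC were below their donor, by -0.66 to -3.66, and limma's difference was -2.20 ± 0.45 (SE, adjusted p = 0.061). The share of all genes with all 6 on 1 side of the donor was not counted, so the same counts for Pou5f1 and Klf4 below have no background either.

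The families split by donor. Mycn measured 4.90, 4.77 and 4.67 in NT-4, NT-5 and NT-6, against 4.47 in Adeno-2. It measured 3.51 in NT-7, against 4.68 in iPSC-7, and 2.87 and 3.47 in NT-8 and NT-9, against 4.70 in iPSC-15. NT-ESC of Adeno-2 were thus above their donor and the other NT-ESC below theirs, and the overall difference was -0.72 ± 0.34 (adjusted p = 0.142 in limma). Pou5f1 was below the donor in 6 of 6 (-0.46 ± 0.14, adjusted p = 0.0706), at 4.87, 4.88 and 4.90, against 5.14 in Adeno-2, at 4.06, against 4.53 in iPSC-7, and at 3.78 and 3.90, against 4.51 in iPSC-15. Klf4 was above the donor in 6 of 6 (0.21 ± 0.13, adjusted p = 0.244), and its second probe set in 5 of 6, with NT-7 at 3.82, against 3.87 in iPSC-7. Sox2 measured 4.20, 4.19 and 4.08 in the NT-ESC of Adeno-2, against 3.79 in Adeno-2, and lay below its donor by -0.01 to -0.18 in NT-7, NT-8 and NT-9.

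NT-7, NT-8 and NT-9 are the arrays that stood apart. Without them, and with Adeno-2 as the only donor, whose spread is then assumed to equal that of the NT-ESC, Myc passed in limma (-0.79, adjusted p = 0.0174, 17.3% of all genes called). Mycn then differed by 0.31 (adjusted p = 0.122), Sox2 by 0.36 (adjusted p = 0.0595) and Pou5f1 by -0.26 (adjusted p = 0.103). With values quantile normalized, which gives all arrays 1 spread, the difference of Myc over all 6 was -2.11 (adjusted p = 0.0702) and that of Mycn -0.61 (adjusted p = 0.182). The mean of the 35 genes Myc raises was 3.22 in NT-7 to NT-9 and 3.72 in NT-4 to NT-6.

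Against ESC, NT-ESC differed by -0.44 in Pou5f1, -0.29 in Sox2, -0.09 in Klf4, -0.24 in Myc and -0.72 in Mycn. The adjusted p-values in limma were 0.297, 0.275, 0.596, 0.766 and 0.285, so none passed, as against 0.00847% of all genes (2074 of 11807 at an unadjusted p under 0.05). With only the NT-ESC of Adeno-2 kept, the differences were 0.04 in Pou5f1, 0.76 in Myc and 0.03 in Mycn, the last 2 with adjusted p of 0.217 and 0.894. NT-ESC and ESC overlapped in Klf4, at 4.28 to 4.50 and 4.40 to 4.52.

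**Figure D5:**
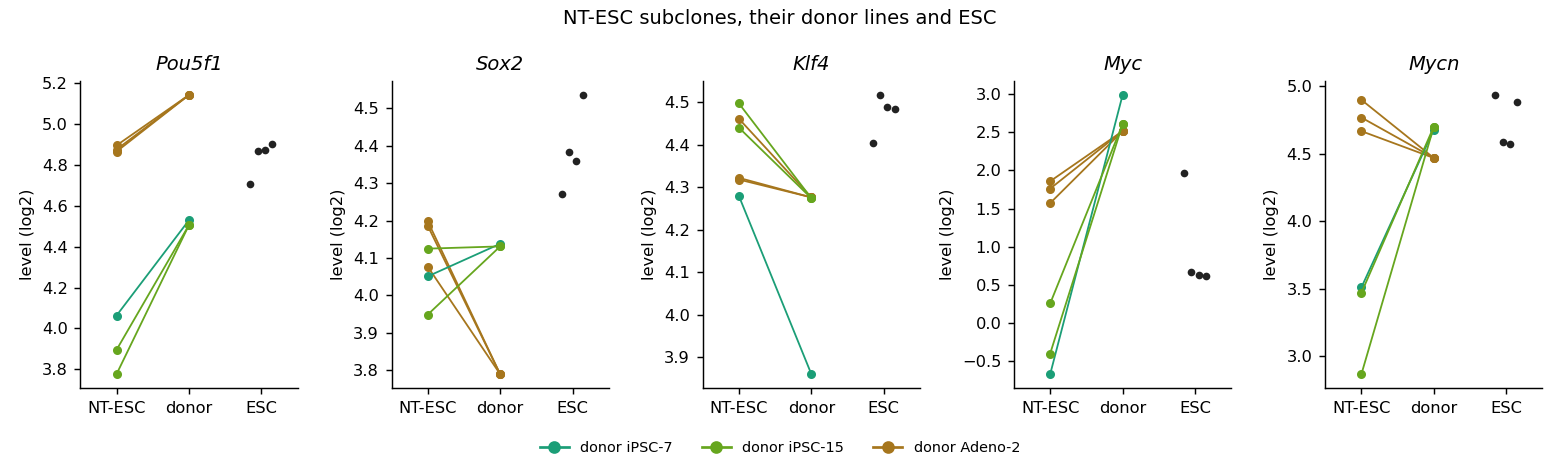
Level (log2, vertical axes, each gene with its own scale) of the 5 genes in each NT-ESC joined by a line to its donor (colour gives the donor line), beside the 4 ESC. Myc is below its donor in 6 of 6 NT-ESC, while Mycn is above the donor in the 3 from Adeno-2 and below it in the 3 from iPSC-7 and iPSC-15.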

How the data were processed

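RNA of 59 lines was measured on 1 Affymetrix array each. The authors deposited log2 intensities of 22626 probe sets, the base inferred from their range (-4.83 to 6.97) and the centring from array means near 0. The sources used here do not give background correction, summarisation or batches, and hold no detection calls that were used. By the platform annotation 18003 probe sets had 1 gene, 287 several and 4336 none. Each of 11807 genes took the probe set whose mean over the arrays was highest.

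Groups were compared with lmFit and eBayes of limma 3.58.1 (R 4.3.3, 2-sided; p-values adjusted by Benjamini-Hochberg across all genes, called under 0.05). Fits were checked on simulated data. The Myc and Mycn relation used 100000 permutations, or all of them under 10 lines (scipy 1.17.1), within groups for deviations. PF and TTF were 1 fibroblast class. All 5 factor genes are named, with up to 4 members past the threshold per list and comparison and the 5 genes most correlated with each factor. Members and lists were chosen with earlier results of these data known. Promoters are RefSeq windows of GRCm38.p6, none is shown for Myc, and the sequence of Mycn was searched only. Alternatives were other normalizations, probe set rules, filters (the 40th percentile of mean level), blocks, weights, covariates and left-out lines, animals or families.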

Additional observations from a re-analysis of the deposited data

Results flagged for a closer look

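Among 56 groups of 4 to 10 arrays, counted per probe set, 7 had a line far from the others by Dixon's test, where chance alone gives about 5%. For Myc these were ESC-1 (1.96, against 0.62 to 0.66 in the other ESC), iPSC-11 (2.40, lowest of the GMP-derived clones of mouse 1), iPSC-27 (1.79, highest of those of mouse 2) and iPSC-45 (2.67, highest of the TTF-derived clones). For Mycn they were iPSC-6 (4.94, highest of the MEF-derived clones) and again iPSC-45 (4.47, lowest of the TTF-derived clones). For the second probe set of Klf4 it was iPSC-21 (4.03, lowest of the HSC-derived clones of mouse 2, the others at 4.24 to 4.27). iPSC-32 is not among them because its group holds 3 clones, a size that was not tested.

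The difference between blood-derived and fibroblast-derived clones itself differed between animals for Pou5f1 (limma interaction, adjusted p = 0.0243) and for Myc (adjusted p = 0.0017), over 42 clones. For Pou5f1 it was 0.18, 1.69 and 0.06 in mouse 1, mouse 2 and chimera 2, and iPSC-32 lies in mouse 2. For Myc it was 0.33, -0.60 and -0.79.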

How the results depend on the processing

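No factor gene was called between MEF-derived clones and ESC, between granulocyte-derived and HSC-derived clones, or between NT-ESC and ESC under any alternative run, while other counts of called factor genes moved. Over all iPSC against ESC the count was 0, and 2 with equal weight of origin groups, 1 without the MEF-derived clones, and 0 to 1 leaving out 1 line (1 without ESC-1). For any difference between cells of origin it was 4, and 0 with 1 mean per animal and cell of origin, 0 with the fibroblast and feeder mean as covariate, 1 without mouse 2, and 3 to 5 leaving out 1 line (5 without iPSC-32). For blood against fibroblast origin it was 5, and 3 with 1 mean per animal and cell of origin, 0 with the covariate, and 5 to 5 leaving out 1 line. For animals it was 3, and 1 each with 1 mean per animal and cell of origin, without mouse 1 and without chimera 2, and 2 to 4 leaving out 1 line, where the call on Mycn was lost without any 1 of 11 lines. For NT-ESC against donors it was 0, and 1 with only the NT-ESC of Adeno-2, and 0 to 3 leaving out 1 line (3 without Adeno-2, when 6321 genes were called). For the interaction it was 2, and 2 to 3 leaving out 1 line.

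Directions that turned were those of small or uncalled differences, with the following exceptions among called ones: with the fibroblast and feeder mean as covariate, blood minus fibroblast was -0.27 for Pou5f1, -0.15 for Klf4 and 0.21 for Myc. Granulocyte minus HSC turned to -0.0300 for Klf4 and 0.0361 for Myc with that covariate, and to -0.0576 and 0.0553 without mouse 1, and for Myc ran from -0.136 (without iPSC-31) to 0.00174 (without iPSC-17). Mycn in iPSC against ESC was -0.00705 with animal as a random block, and -0.0518 (without ESC-3) to 0.0702 (without ESC-1) leaving out 1 line. Myc in MEF-derived clones against ESC was -0.400 (without ESC-4) to 0.0488 (without ESC-1). NT-ESC minus donor was 0.31 for Mycn without NT-7 to NT-9 and, for Sox2, -0.0910 (without Adeno-2) to 0.183 (without iPSC-15). NT-ESC minus ESC was 0.0408 for Pou5f1, 0.763 for Myc and 0.0338 for Mycn without NT-7 to NT-9, 0.0088 for Klf4 with quantile normalization, and for Myc -0.465 (without NT-6) to 0.0935 (without ESC-1). The correlation of Myc with Mycn turned to 0.00679 within mouse 1, 0.284 in blood-derived clones of chimera 2, 0.448 over 59 lines, where NT-7 to NT-9 form a separate cluster, and 0.0479 and 0.136 with the other Mycn probe sets. Causes were not tested.

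With the replicate number as a block (replicate block), MEF-derived clones against ESC again gave 0 of 5 factor genes, and 15 genes in all against 0 without it. These numbers only name clones and do not pair them. Counts over all genes also moved by over 1.5 times: MEF against ESC 0, and 203 with 1 fit over all groups; iPSC against ESC 583, and 0 with animal as a random block, 3039 with equal weight, 2280 without MEF-derived clones and 5 to 1112 leaving out 1 line. Cells of origin gave 4488, and 2050 with 1 mean per animal and cell and 924 with the covariate. Blood against fibroblast gave 5870, and 2127 with the covariate. Animals gave 5307, and 2764 with 1 mean per animal and cell and 2033 without chimera 2. NT-ESC against donors gave 7, and 0 without the donor block, 12 with trend and robust settings, 0 to 6321 leaving out 1 line and 2042 without NT-7 to NT-9. NT-ESC against ESC gave 1, and 468 without NT-7 to NT-9. With all 22626 probe sets tested singly, the counts were 8 for MEF, 1019 for all iPSC, 8136 for cells of origin, 10754 for blood against fibroblast, 9611 for animals, 13 and 5 for NT-ESC against donors and ESC, and 3893 for the interaction (2265 by gene). No pseudocount applied to values that are already logarithms. Alternatives with iPSC-32 left out, the blood-only and single-probe-set relations and the interaction were chosen after seeing the data.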

Other observations

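Adeno-2, the single iPSC line made with adenovirus, had the highest Pou5f1 of the 59 lines (5.14) and, apart from iPSC-34, the lowest Sox2 (3.79). Its Klf4 (4.28), Myc (2.52) and Mycn (4.47) lay inside the ranges of the other iPSC. With 1 line there is no test.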
